A study of Sus scrofa with 19 samples.

Results

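The expression of 10 genes that encode targets, metabolizing enzymes and transporters of anthracycline drugs was followed in RNA-seq counts of left ventricular (LV) tissue from 19 pigs. The list was drawn up by role. It holds the topoisomerases TOP2B and TOP1, the reductases CBR1, CBR3, AKR1A1 and NQO1, the efflux pumps ABCB1, ABCC1 and ABCC4, and the retinoic acid receptor gene RARG. Of the 10 symbols, 8 were found in the gene table deposited by the authors, which lists 14744 of the 25879 genes counted, and all 8 had enough counts to be tested. The remaining members, CBR1 and CBR3, were found only in a separate table of gene names and are described apart from the 8.

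All animals were described as female large white pigs, with 1 library per pig. DOX (n = 5) received doxorubicin and MYO (n = 5) received Myocet, a liposomal doxorubicin-citrate complex, each at 60 mg/m2 of body surface in 3 cycles, and both were ended at 3 months because the animals were ill. RemoLV (n = 3) had a balloon occlusion of the left anterior descending artery for 90 min followed by reperfusion, and tissue came from the posterior wall, away from the infarct, at 6 months. Hyper (n = 3) carried a stent in the descending thoracic aorta that became a stenosis as the juvenile pigs grew, and Control (n = 3) is called sham-operated in the sample descriptions and untreated in the methods of the study. In DOX, MYO, Hyper and Control the anterior wall was sampled, and Hyper and Control tissue was taken at 6 months.

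Anthracyclines such as doxorubicin trap topoisomerase II on cut DNA. In heart muscle cells, which hardly divide, the beta form encoded by TOP2B is the main form and is widely held to be needed for the cardiac toxicity of the drug. Carbonyl and aldo-keto reductases turn doxorubicin into the alcohol doxorubicinol, quinone reductases act on the ring that can enter redox cycling, and pumps of the ABC family move the drug or its conjugates out of cells. RARG encodes a nuclear receptor that can repress TOP2B, and an inherited variant in RARG has been linked to cardiotoxicity in patients.

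Library totals ran from 9527710 to 20370209 counts on genes (median 14527230). Expression is given as CPM, the counts of a gene scaled to the effective size of its library (TMM method). The names of the libraries conflict between the deposits. Each sample column of the authors' table followed 1 count file exactly in rank order, and 8 of the 19 columns carried the name of another group. The 3 libraries labelled RemoLV are all named Control in that table and the reverse, and the libraries labelled DOX5 and MYO1 are exchanged. The count file labels are used below, and values by table name are given for the calls of members that change. Hyper consists of the same 3 libraries under both, with Hyper1 and Hyper3 exchanged within the group, and DOX and MYO pooled are the same 10 libraries. Library numbers below are those of the count files. The 3 libraries labelled RemoLV also stood apart in markers of heart chambers. They held 6029 to 8130 CPM of MYL4, the atrial light chain, against 0.594 to 3.1 CPM in Control, and 18.6 to 115 CPM of MYL2, the ventricular light chain, against 13577 to 18077 CPM. In the same 3 libraries the ventricular factor IRX4 was at 0 to 0.178 CPM, and the atrial calcium pump regulator SLN was at 43.7 to 91.9 CPM. Other chamber markers differed less. The ventricular MYH7 was at 22349 to 25986 CPM in RemoLV against 31944 to 49805 CPM in Control. MYL3 was at 2057 to 3030 against 4460 to 6755 CPM. The atrial MYL7 was at 3281 to 4770 CPM in RemoLV and 59.1 to 111 CPM in Control. MYL7 was also at 1080 to 2379 CPM in DOX, 736 to 1193 in MYO and 172 to 1229 in Hyper. The 4 Y-chromosome genes found, DDX3Y, KDM5D, EIF1AY and ZFY, summed to 172 to 252 CPM in each DOX and MYO library and to at most 0.226 CPM in each of the 9 others, although all pigs were described as female. The DOX and MYO data came from an earlier experiment with a shorter follow-up. Drug, follow-up, experiment and the Y-gene signal therefore cannot be told apart in any comparison of these 10 libraries with the others.

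Positions are from RefSeq (build Sscrofa11.1, the build of the count files). TOP2B is at chr13:12507738-12575042, TOP1 at chr17:43710270-43799700, AKR1A1 at chr6:165811245-165825168 and NQO1 at chr6:17292962-17302593. ABCB1 is at chr9:93049955-93146469, ABCC1 at chr3:28360868-28472940, ABCC4 at chr11:64089149-64309831 and RARG at chr5:18436267-18458625. RefSeq classes the pig RARG record as a long noncoding RNA. Sequences of the 250 bases before the annotated start are shown for the drug targets TOP2B and TOP1, for NQO1, whose human promoter is the textbook example of an antioxidant response element, and for ABCC4, the pump whose level varied most between groups. Capitals mark matches, searched on both strands, to the GC box GGGCGG, the CCAAT box CCAAT, the antioxidant response element TGACNNNGC, the E-box CACGTG and the nuclear receptor half-site AGGTCA. All 4 sequences are written 5′ to 3′ along the transcribed strand, from chr13:12575043-12575292 (minus strand), chr17:43710020-43710269 (plus strand), chr6:17292712-17292961 (plus strand) and chr11:64309832-64310081 (minus strand).
TOP2B: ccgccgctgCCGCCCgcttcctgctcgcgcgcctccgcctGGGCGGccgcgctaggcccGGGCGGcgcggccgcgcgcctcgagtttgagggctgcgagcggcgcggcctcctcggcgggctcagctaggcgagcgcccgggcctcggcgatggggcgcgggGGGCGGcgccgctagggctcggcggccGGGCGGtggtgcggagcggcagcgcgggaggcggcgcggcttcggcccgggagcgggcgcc
TOP1: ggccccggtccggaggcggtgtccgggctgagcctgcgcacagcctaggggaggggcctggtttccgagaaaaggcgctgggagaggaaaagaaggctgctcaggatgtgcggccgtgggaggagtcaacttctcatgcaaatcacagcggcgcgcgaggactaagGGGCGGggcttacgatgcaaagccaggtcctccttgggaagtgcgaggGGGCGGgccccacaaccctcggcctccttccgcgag
NQO1: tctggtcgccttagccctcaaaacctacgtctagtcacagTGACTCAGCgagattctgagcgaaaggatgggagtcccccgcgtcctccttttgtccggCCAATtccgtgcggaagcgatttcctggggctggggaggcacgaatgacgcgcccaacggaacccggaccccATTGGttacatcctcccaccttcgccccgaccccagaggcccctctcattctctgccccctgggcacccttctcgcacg
ABCC4: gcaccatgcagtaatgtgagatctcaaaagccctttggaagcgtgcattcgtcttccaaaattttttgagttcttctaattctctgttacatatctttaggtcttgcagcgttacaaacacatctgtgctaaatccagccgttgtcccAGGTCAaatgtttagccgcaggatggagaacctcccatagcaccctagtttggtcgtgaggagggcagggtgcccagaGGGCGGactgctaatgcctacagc

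GGGCGG was present in 45.9% of the 19545 windows of this length without unknown bases, taken from protein-coding RefSeq genes on nuclear chromosomes. TOP2B held 5 matches and TOP1 held 2. TOP2B was the most GC-rich window of the 10 members, at 84.8% G and C, against 66.8% for TOP1. In NQO1 the sequence matching TGACNNNGC lay at -210 to -202 from the start, and 9.96% of all windows held such a match. NQO1 also had CCAAT boxes at -151 and -79, a motif present in 31.9% of windows. ABCC4 had an AGGTCA half-site at -102 to -97, present in 12.2% of windows, and a GC box at -24. In the windows not printed, RARG held 4 GC boxes, the first pair of them overlapping, ABCB1 and AKR1A1 held 1 CCAAT box each, and ABCC1 held none of the motifs. These matches are letters only, and no binding was measured.

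Per kilobase of exons, TOP2B had the highest median level over the 19 libraries, at 23.2 CPM per kilobase, followed by TOP1 at 13.2 and NQO1 at 12.7. The lengths are of all RefSeq exons of a gene, whereas the counts were made on Ensembl genes, so the order is approximate. ABCC1 followed at 8.66 CPM per kilobase and AKR1A1 at 5.31. The lowest were ABCB1 at 3.16, ABCC4 at 2.9 and RARG at 2.03 CPM per kilobase. The ranges over libraries overlapped between neighbours in this order, for example 10.3 to 28.1 for TOP1 and 6.53 to 26.3 for NQO1. TOP2B, at 18.8 to 29 CPM per kilobase, and RARG, at 0.932 to 4.25, did not overlap with each other.

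**Figure D1:**
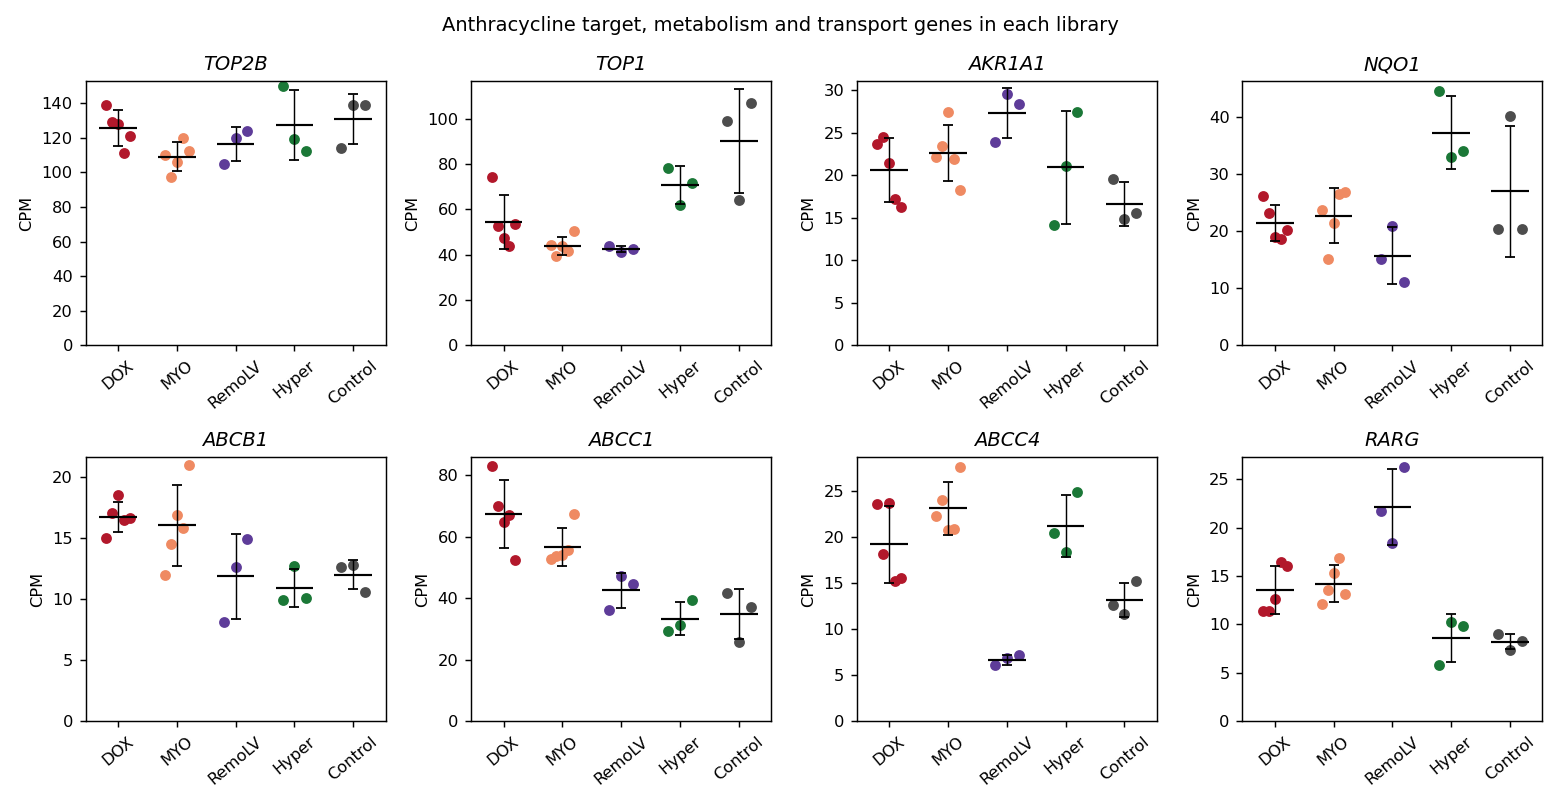
CPM (y axis, linear from 0) of the 8 members in each library by count file label (x axis), with 1 point per pig and the mean ± SD of each group in black. All 10 DOX and MYO points of ABCC1, from 52.4 to 83.2 CPM, lie above the 9 others, from 25.8 to 47.1 CPM, and the RemoLV points lie apart in ABCC4 and RARG.

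The first question was whether drug target, metabolism and transport genes differed between hearts given either form of doxorubicin and the other hearts. ABCC1, ABCC4 and ABCB1, all efflux pumps, were higher in the 10 DOX and MYO libraries than in the 9 others, by 1.69-fold, 1.72-fold and 1.42-fold. TOP1 was lower by 1.32-fold. TOP2B, AKR1A1, NQO1 and RARG did not pass the test. So 3 of the 8 members were called higher and 1 lower at an adjusted p of at most 0.05 (quasi-likelihood test of edgeR, p-values adjusted by the Benjamini-Hochberg method over 13552 genes), where 45.5% of all genes tested were called, 23.7% higher and 21.8% lower. The median log2 fold change of the 8 was 0.15, against 0.014 over all genes. The 4 of 8 called among the members is thus near the background share, and no member reached the fold threshold of the study, an absolute log2 fold change of 2, which 1.42% of genes passed. In whole tissue, fewer cells of a type and less RNA per cell cannot be told apart. The 5 markers of all cardiomyocytes summed to 20900 to 26516 CPM in DOX and MYO, 15148 to 17099 in RemoLV and 27807 to 39405 in Hyper and Control. The part of this difference in the results was not tested.

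TOP2B, the target of doxorubicin in heart muscle, ranged from 111 to 139 CPM in DOX (median 128) and from 97.3 to 120 CPM in MYO (median 110). It ranged from 105 to 124 CPM in RemoLV, from 112 to 150 CPM in Hyper and from 114 to 139 CPM in Control. All 5 groups overlapped. The log2 fold change of DOX and MYO vs. the others was -0.09 (95% interval -0.24 to 0.06, adjusted p = 0.305). Against Control alone it was -0.06 in DOX (interval -0.29 to 0.18) and -0.26 in MYO (interval -0.49 to -0.03, adjusted p = 0.0669). TOP2B in MYO vs. Control lay close to the threshold, with -0.29 in DESeq2 (adjusted p = 0.034), -0.28 in edgeR with RLE size factors (adjusted p = 0.0447) and -0.35 without Control1 (adjusted p = 0.0333). With table names the log2 fold change vs. Control was -0.07 in MYO (adjusted p = 0.711) and 0.08 in DOX (adjusted p = 0.635).

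TOP1, the topoisomerase that relaxes DNA by cutting 1 strand, read 74.3, 52.8, 47.5, 44.1 and 53.6 CPM in DOX and 44.5, 39.4, 44.1, 41.6 and 50.3 CPM in MYO. The readings were 78.5, 62 and 71.7 CPM in Hyper and 99.2, 64 and 107 CPM in Control. In RemoLV they were 43.8, 41.2 and 42.4 CPM, inside the range of DOX and MYO. DOX1 was the single drug library inside the range of Hyper and Control. TOP1 was lower in DOX and MYO than in Hyper by 1.45-fold (log2 fold change -0.53, SE 0.14, adjusted p = 0.00841). It was lower than in Control by 1.65-fold in DOX (-0.73, SE 0.16, adjusted p = 0.00168) and by 2.05-fold in MYO (-1.04, SE 0.16, adjusted p = 9.2e-05). With table names the last pair became 0.31 and 0.11, neither of them called, because the libraries then named Control are those with low TOP1. The comparison with all 9 others kept its call, at -0.40 under both namings (adjusted p = 0.00406 by label and 0.00689 by table name). With library totals as the only scaling, which moved the median of all genes to 0.214, 0.285 and 0.446 in the comparisons with the others, with Hyper and of DOX with Control, TOP1 was no longer called in them, at -0.19 (adjusted p = 0.0968), -0.28 (adjusted p = 0.103) and -0.27 (adjusted p = 0.134).

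Among the reductases, AKR1A1, a broad aldehyde reductase, ranged from 16.3 to 24.5 CPM in DOX and from 18.3 to 27.4 CPM in MYO. Its range was 14.2 to 27.4 CPM in Hyper, 14.8 to 19.6 CPM in Control and 23.9 to 29.5 CPM in RemoLV. DOX and MYO each overlapped with the other groups, and DOX and MYO vs. the others gave a log2 fold change of 0.03 (interval -0.22 to 0.28, adjusted p = 0.853). By count file label, RemoLV vs. Control was the only one of 8 comparisons in which AKR1A1 passed the test, at 0.72 (SE 0.21, adjusted p = 0.00968), and it is -0.72 with table names. With library totals it was also called in DOX (0.75, adjusted p = 0.00615) and in MYO (0.88, adjusted p = 0.002) vs. Control. There TMM gave 0.31 (adjusted p = 0.197) in DOX and 0.45 (SE 0.19, adjusted p = 0.0681) in MYO, neither called. The MYO difference was also called in a fit of only the libraries compared (0.43, adjusted p = 0.0473) and without MYO5 (0.51, adjusted p = 0.0465).

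NQO1, the quinone reductase that transfers 2 electrons at once, read 26.2, 23.2, 19.1, 18.6 and 20.3 CPM in DOX and 23.7, 15.2, 21.5, 26.5 and 27 CPM in MYO. It read 44.7, 33.1 and 34.2 CPM in Hyper, and 20.4, 40.3 and 20.5 CPM in Control. The RemoLV libraries held 15.2, 21 and 11.1 CPM. All 10 DOX and MYO libraries lay below all 3 Hyper libraries, an order that 11.0% of genes showed in this direction. NQO1 was 1.69-fold lower in DOX and MYO than in Hyper (log2 fold change -0.76, SE 0.21, adjusted p = 0.00901). This call was lost with library totals (-0.49, adjusted p = 0.136) and without Hyper1 (-0.61, adjusted p = 0.0909). Vs. the 9 others NQO1 was called lower once RemoLV was left out (-0.53, adjusted p = 0.0119). Against Control the interval was -0.83 to 0.16 in DOX and -0.75 to 0.25 in MYO, neither called. Over single omitted libraries these log2 fold changes ran from -0.5 to 0.07 in DOX and from -0.42 to 0.15 in MYO. The library Control2 held 40.3 CPM, about the Hyper level, and the log2 fold change in Hyper vs. Control rose from 0.46 (adjusted p = 0.36) to 0.87 (adjusted p = 0.0236) without it. Control2 and Hyper1 were also the closest pair of libraries in the series, with a mean chi-square per gene of 11.6 where counting noise alone gives a value near 1.

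The carbonyl reductases could not be measured well. The gene named CBR1 (ENSSSCG00000031111, chr13:199617406-199622407) had 0 to 2 counts in each library, at or under the floor of 3 counts, so no fold was computed. The gene named CBR3 in the name table (ENSSSCG00000012053, with RefSeq placing CBR3 nearby at chr13:199830690-199840444) appears in the authors' table as LOC100622246, which RefSeq describes as a carbonyl reductase 1, so its identity between these near copies is uncertain. It had 3 to 25 counts per library and 0.206 to 1.41 CPM. DOX and MYO vs. the others gave 0.37 (interval -0.18 to 0.92, adjusted p = 0.256), and none of the 8 comparisons called it.

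Of the pumps, ABCC1 (also known as MRP1, which exports glutathione conjugates) did not overlap between the 10 DOX and MYO libraries and the 9 others, while DOX overlapped with MYO and the other 3 groups with each other. The values were 83.2, 70, 64.9, 67.1 and 52.4 CPM in DOX and 52.7, 53.8, 54.1, 55.7 and 67.5 CPM in MYO. They were 36.2, 47.1 and 44.6 CPM in RemoLV, 29.2, 31.3 and 39.4 CPM in Hyper, and 41.7, 25.8 and 37.1 CPM in Control. Every DOX and MYO library was above every other library, an order that 1.84% of the 13552 genes showed in this direction. ABCC1 had a log2 fold change of 0.75 vs. the others (SE 0.10, adjusted p = 1.62e-05) and of 0.89 vs. Hyper (SE 0.15, adjusted p = 0.000265). Vs. Control it was 0.95 in DOX (SE 0.16, adjusted p = 0.00024) and 0.70 in MYO (SE 0.16, adjusted p = 0.00239). With table names the MYO value was 0.41 and was not called (adjusted p = 0.0632), and the DOX value was 0.66 (adjusted p = 0.00492).

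ABCC4 (MRP4, which exports cyclic nucleotides and prostaglandins) read 23.5, 18.1, 23.7, 15.2 and 15.5 CPM in DOX and 22.3, 24, 20.7, 20.8 and 27.6 CPM in MYO. It read 20.4, 18.3 and 24.8 CPM in Hyper, 12.6, 11.6 and 15.2 CPM in Control, and 6.05, 6.82 and 7.13 CPM in RemoLV. DOX, MYO and Hyper overlapped, the highest Control and the lowest DOX library were both at 15.2 CPM after rounding, the other Control libraries lay lower, and RemoLV was below every other library, as in 7.98% of genes. ABCC4 did not differ detectably between DOX and MYO and Hyper (log2 fold change -0.01, interval -0.31 to 0.3). The difference from the 9 others (0.78, SE 0.10, adjusted p = 1.61e-05) was therefore a difference from the libraries labelled RemoLV and Control, and without RemoLV it was 0.34 (SE 0.12, adjusted p = 0.0278). RemoLV vs. Hyper gave -1.67 (SE 0.19, adjusted p = 3.61e-06), the largest difference of a member in the 8 comparisons by count file label. Vs. Control, DOX gave 0.55 (adjusted p = 0.0132) and MYO 0.82 (adjusted p = 0.000969), and with table names these were 1.63 and 1.70. The DOX call was lost without Control2 (0.47, adjusted p = 0.0536) and in a fit of only the libraries compared (0.55, adjusted p = 0.0506).

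ABCB1 (P-glycoprotein, the classical multidrug pump, found in capillary endothelium) read 15, 17, 18.5, 16.5 and 16.6 CPM in DOX and 12, 14.5, 16.9, 15.8 and 21 CPM in MYO. The libraries of RemoLV held 8.09, 12.6 and 14.9 CPM, those of Hyper 9.89, 12.7 and 10.1 CPM, and those of Control 12.6, 12.8 and 10.6 CPM. All 5 DOX libraries were above the 9 libraries without anthracycline, by a small margin over RemoLV3, an order shown by 2.80% of genes, and MYO overlapped with them. With table names DOX includes the library at 12 CPM and overlaps with the 9 others. ABCB1 was higher in DOX and MYO than in the others (log2 fold change 0.50, SE 0.11, adjusted p = 0.00171) and than in Hyper (0.59, SE 0.17, adjusted p = 0.0125). The call vs. Hyper was lost without Hyper1 (0.53, adjusted p = 0.0787) or Hyper3 (0.54, adjusted p = 0.0521). Vs. Control, DOX gave 0.48 (SE 0.18, adjusted p = 0.0427) and MYO 0.42 (SE 0.18, adjusted p = 0.0742). With table names these calls changed places, at 0.42 in DOX (adjusted p = 0.0892) and 0.52 in MYO (adjusted p = 0.0395), and MYO was also called without RemoLV (0.41, adjusted p = 0.0449), without MYO1 (0.50, adjusted p = 0.033) and with library totals (0.83, adjusted p = 0.00452). The DOX call was lost in 7 of the 8 fits that left out 1 DOX or Control library, with log2 fold changes of 0.40 to 0.53. The 6 endothelial markers summed to 800 to 1106 CPM in DOX, 1009 to 1048 in MYO, 720 to 786 in RemoLV, 818 to 933 in Hyper and 827 to 1020 in Control, with none at 0. Of the 6, VWF, KDR and TIE1 were called higher in DOX and MYO than in the others and TEK lower, and their part in the ABCB1 difference was not tested.

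RARG read 11.4, 11.4, 12.6, 16.5 and 16 CPM in DOX and 12.1, 13.6, 15.3, 16.9 and 13.1 CPM in MYO. It read 5.77, 10.2 and 9.79 CPM in Hyper, 8.96, 7.36 and 8.32 CPM in Control, and 21.7, 18.4 and 26.3 CPM in RemoLV. The DOX and MYO libraries thus lay above all 6 Hyper and Control libraries (6.61% of genes) and below all 3 RemoLV libraries (13.5% of genes), and RemoLV was above all 16 other libraries (8.18% of genes). Against the 9 others together the log2 fold change was 0.26 (SE 0.12, adjusted p = 0.0783), and RARG was called higher with library totals (0.47, adjusted p = 0.00761) and without RemoLV3 (0.31, adjusted p = 0.0483). RARG was higher than in Hyper by 1.62-fold (0.69, SE 0.18, adjusted p = 0.00608), and without the libraries labelled RemoLV the difference from Hyper and Control was 0.73 (SE 0.14, adjusted p = 0.000461). Vs. Control, RARG was higher in DOX (0.72, adjusted p = 0.00623), in MYO (0.79, adjusted p = 0.00338) and in RemoLV (1.43, adjusted p = 3.85e-05). With table names the same 3 values were -0.79, -0.56 and -1.43, each of them called. The 5 fibroblast markers summed to 2047 to 3712 CPM in DOX and MYO, 4687 to 5387 in RemoLV and 868 to 1909 in Hyper and Control, with none at 0. The sum has the same order of groups as RARG and is carried by COL1A1 and COL1A2. The other markers followed it in part. DCN had its highest median in RemoLV, at 850 CPM, but medians of 417 and 406 CPM in DOX and MYO against 530 in Hyper and 453 in Control. PDGFRA was likewise highest in RemoLV, at a median of 27.7 CPM, with 11.6 and 6.93 CPM in DOX and MYO against 7.49 in Hyper and 22.6 in Control. LUM had medians of 132 to 133 CPM in DOX, MYO and RemoLV against 117 in Hyper and 108 in Control. The part of these markers in the RARG differences was not tested.

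**Figure D2:**
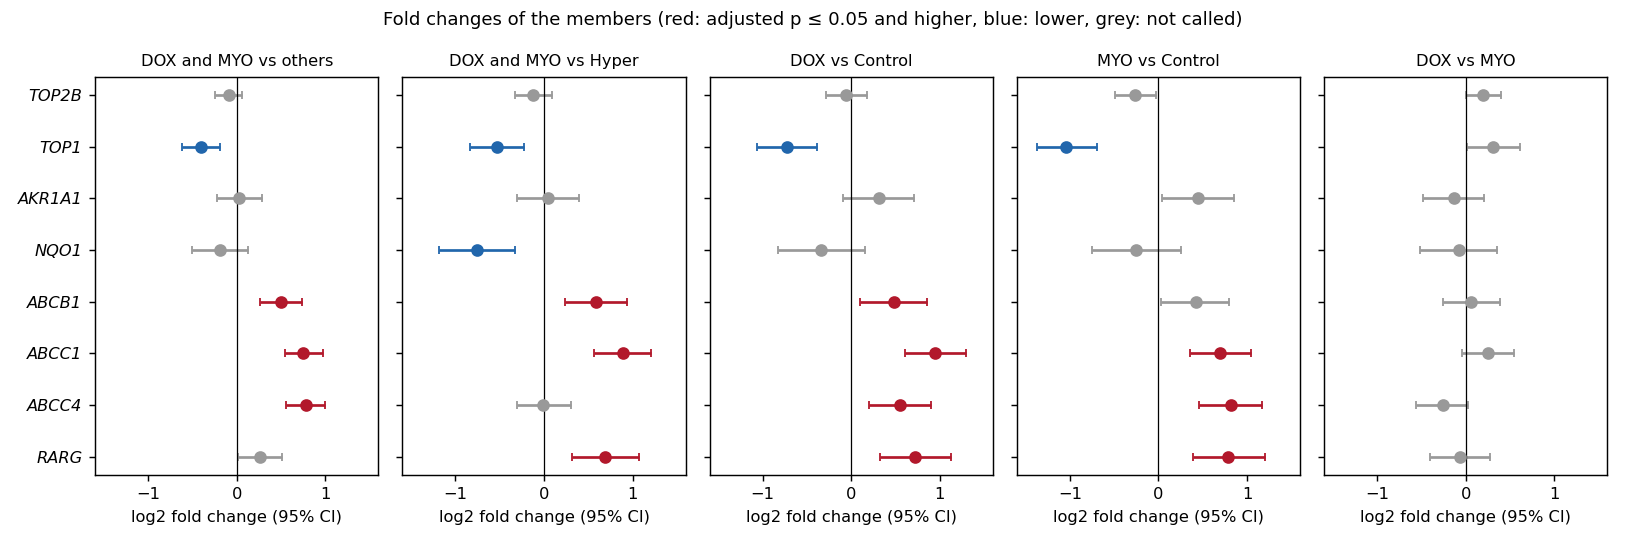
Log2 fold change (x axis) with its 95% confidence interval for the 8 members (y axis) in 5 comparisons by count file label, from edgeR. Red points are called higher and blue points lower at an adjusted p of at most 0.05, and grey points are not called. ABCC1 is red in the first 4 panels, from 0.70 to 0.95, TOP1 is blue in the same 4, and all points of DOX vs. MYO are grey.

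By comparison, DOX and MYO vs. Hyper called ABCB1, ABCC1 and RARG higher and TOP1 and NQO1 lower, 5 of 8 members where 32.6% of all genes were called. Without Hyper1, ABCC1 alone kept its call in this comparison. DOX vs. Control called ABCB1, ABCC1, ABCC4 and RARG higher and TOP1 lower (background 42.1%). MYO vs. Control called ABCC1, ABCC4 and RARG higher and TOP1 lower (background 42.4%). With table names, DOX vs. Control called ABCC1 and ABCC4 higher and RARG lower (background 29.6%), and MYO vs. Control called ABCB1 and ABCC4 higher and RARG lower (background 29.2%). These 2 comparisons share the 3 Control libraries, so the likeness of their values is no separate support.

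The next question was whether free and liposomal doxorubicin, given at the same dose and in the same number of cycles, left different levels of these genes. None of the 8 members passed the test in DOX vs. MYO. Among all 13552 genes 0% were called by edgeR, 960 genes had an unadjusted p under 0.05, and DESeq2 called 2 genes. For the 8 members the lowest adjusted p was 0.7, for TOP1, at a log2 fold change of 0.31 (interval 0.01 to 0.61). Over single omitted libraries the TOP1 value was 0.17 to 0.38. ABCC1 gave 0.25 (interval -0.04 to 0.54) and ABCC4 -0.26 (interval -0.56 to 0.03). TOP2B gave 0.20 (interval 0.00 to 0.40), from means of 126 ± 10.3 CPM in DOX and 109 ± 8.52 CPM in MYO (SD, n = 5 each). The intervals of ABCB1 (-0.26 to 0.39), RARG (-0.40 to 0.27), AKR1A1 (-0.48 to 0.21) and NQO1 (-0.52 to 0.35) included 0. The intervals leave room for differences of up to about these bounds between the formulations, and they do not show that the formulations act alike. The exchange of DOX5 and MYO1 between the namings moved no member past the threshold.

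Among the models without an anthracycline, Hyper vs. Control called none of the 8 members and none of all genes (0%, with 2418 genes at an unadjusted p under 0.05). Without Control2, 2538 genes were called, with TOP1 lower (-0.55) and NQO1 (0.87) and ABCC4 (0.61) higher among them, and without Hyper1 773 genes were called. DESeq2 called 312 genes, ABCC4 among them at 0.68 (adjusted p = 0.0362, against 0.69 and 0.127 in edgeR). RemoLV vs. Control called AKR1A1 and RARG higher and TOP1 (-1.09, SE 0.18), NQO1 (-0.77, SE 0.27) and ABCC4 (-0.98, SE 0.19) lower, where 47.2% of genes were called. The NQO1 call was lost without RemoLV1 (-0.74, adjusted p = 0.0687), RemoLV3 (-0.58, adjusted p = 0.117) or Control2 (-0.37, adjusted p = 0.22), with library totals (-0.34, adjusted p = 0.376) and in a fit of only the libraries compared (-0.77, adjusted p = 0.101). The ABCC4 call was lost with library totals (-0.45, adjusted p = 0.0593). With table names, which exchange the 2 groups, TOP1 (1.09), NQO1 (0.77) and ABCC4 (0.98) were called higher and AKR1A1 and RARG lower. RemoLV vs. Hyper, which does not use the Control libraries, called RARG higher (1.36, SE 0.21) and TOP1 (-0.74, SE 0.18), NQO1 (-1.24, SE 0.27) and ABCC4 lower, where 35.6% of genes were called. With library totals TOP1 was not called in RemoLV vs. Hyper (-0.40, adjusted p = 0.0617), AKR1A1 was called higher (0.72, adjusted p = 0.0167), and ABCC1 was called higher in RemoLV vs. Control (0.83, adjusted p = 0.000889, against 0.29 with TMM) and vs. Hyper (0.69, adjusted p = 0.00526, against 0.36). With table names, Hyper vs. Control called TOP1 (0.74), NQO1 (1.24) and ABCC4 (1.67) higher and RARG (-1.36) lower, where 35.8% of genes were called, and in RemoLV vs. Hyper edgeR called no member and 0 genes, with 2465 genes at an unadjusted p under 0.05. The libraries labelled RemoLV are those with high MYL4, and wall, chamber markers and infarction cannot be told apart in them.

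**Figure D3:**
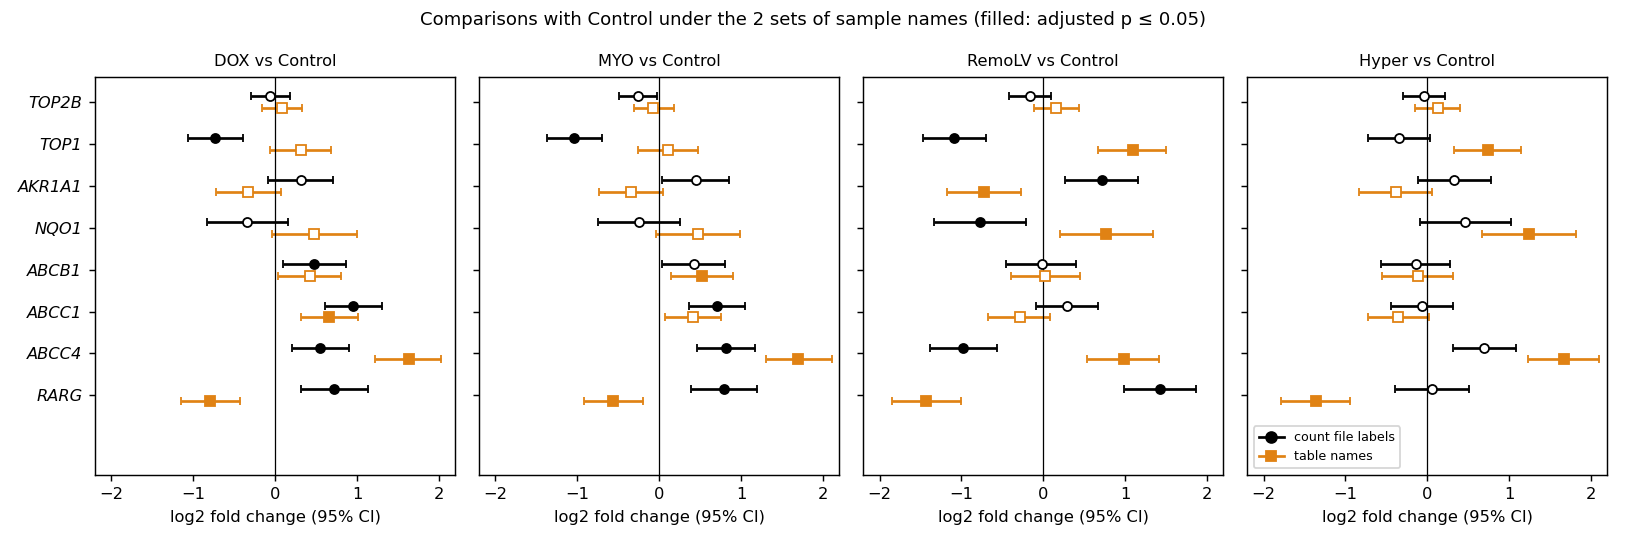
Log2 fold change vs. Control (x axis) with 95% confidence interval of the 8 members (y axis) by count file label (black circles) and with the names in the authors' table (orange squares), filled where the adjusted p is at most 0.05. RARG is at 0.72 by label and -0.79 by table name in DOX, while ABCC1 lies above 0 under both in DOX and MYO.

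The neighbours of the members in the same pathways were described from 7 lists by role, with 52 genes listed, 44 found and 35 tested. In DOX and MYO vs. the others, 9 of the 35 were called higher and 5 lower, beside 23.7% and 21.8% of all genes, and their median log2 fold change was 0.09. Among topoisomerases and repair genes, 2 of 6 rose and 1 fell. TOP2A, the alpha form found in dividing cells, had 14 ± 4.64 CPM in DOX and 8.4 ± 1.89 CPM in MYO (SD, n = 5 each), against 3.92 ± 1.84 CPM in Hyper, 4.13 ± 0.706 CPM in Control and 9.49 ± 6.34 CPM in RemoLV (SD, n = 3 each). Its log2 fold change was 1.01 (adjusted p = 0.00262). TOP3A, which resolves mitochondrial and nuclear DNA links, was higher by 0.60 (adjusted p = 8.09e-05). TDP2, which removes trapped topoisomerase II from DNA ends, was lower, at -0.60 (adjusted p = 8.5e-05), from 43.4 ± 6.01 CPM in DOX and 36.9 ± 6.88 CPM in MYO against 57.1 ± 11.5 CPM in Hyper and 63.1 ± 5.41 CPM in Control.

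None of the 6 tested carbonyl and aldo-keto reductases was called higher and 1 was called lower, AKR7A2, an aldehyde reductase, at -0.40 (adjusted p = 0.0148). AKR7A2 had 8.31 ± 2.04 CPM in DOX and 12.6 ± 2.17 CPM in MYO. It had 11.5 ± 2.32 CPM in RemoLV, 14.1 ± 1.17 CPM in Hyper and 15 ± 2.6 CPM in Control, so the MYO mean lay above that of RemoLV. Without RemoLV, 3 of the 6 reductases were called lower (24.7% of all genes). In DOX vs. Control 3 were lower (21.1% of all genes), and in MYO vs. Control 1 was (21.7%). With table names 3 were instead higher and 0 lower in DOX and in MYO vs. Control, where 15.0% and 14.8% of all genes were higher. DHRS4, a peroxisomal carbonyl reductase, had 229 ± 51.9 CPM in DOX and 255 ± 67.7 CPM in MYO, against 622 ± 224 CPM in Control, 319 ± 77.7 CPM in Hyper and 50.4 ± 8.48 CPM in RemoLV. Its log2 fold change vs. the others was 0.17 (adjusted p = 0.408), and -0.88 without RemoLV (adjusted p = 0.00075). This comparison averages groups on the log scale with equal weight. The mean over libraries was lower in DOX and MYO, at 242 CPM against 331 CPM in the 9 others. Vs. Control the log2 fold change of DHRS4 was -1.44 in DOX and -1.29 in MYO, both called, and 2.17 and 2.35 with table names, both called. CBR4, a mitochondrial carbonyl reductase, stood at 0.41 (adjusted p = 0.0642). Of 9 enzymes that can pass single electrons to the quinone or act on it otherwise, the inducible nitric oxide synthase NOS2 rose by 0.64 on the log2 scale (adjusted p = 0.00143), the endothelial form NOS3 fell by 0.39 (adjusted p = 0.00991), and the other 7 were not called.

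Other transporters moved in both directions. Of 4 tested in the list of ABC efflux pumps, ABCC10 (0.80, adjusted p = 1.26e-05), ABCC3 (0.64, adjusted p = 0.00458) and the mitochondrial ABCB8 (0.41, adjusted p = 8.43e-05) were higher. ABCC3 had 4.48 ± 0.15 CPM in DOX, 3.96 ± 1.31 CPM in MYO and 4.08 ± 0.615 CPM in Control, against 2.1 ± 0.506 CPM in RemoLV and 2.29 ± 0.719 CPM in Hyper, and it was not called in DOX or MYO vs. Control (0.14 and -0.04), whereas with table names these values were 0.98 and 1.01 (adjusted p = 0.0129 and 0.0111). ABCC10 had 42.2 ± 4.73 CPM in DOX, 39.8 ± 3.97 CPM in MYO and 39.8 ± 2.15 CPM in RemoLV, against 21.3 ± 5.84 CPM in Hyper and 15.4 ± 4.2 CPM in Control, so RemoLV overlapped with the drug groups. Among 5 uptake carriers, the nucleoside carrier SLC29A1 was higher (0.41, adjusted p = 0.000587). SLCO1A2, an organic anion carrier of endothelium, was lower (adjusted p = 1.26e-05), with 1 to 90 counts per library in the 9 others and 0 to 4 counts in DOX and MYO. The counts in DOX and MYO are about the floor of 3, so the fitted log2 fold change of -4.50 (SE 0.59) gives neither a reliable size nor a limit. A Hyper library with 0.0753 CPM lay inside the range of DOX and MYO, 0 to 0.317 CPM.

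Retinoid receptors other than RARG also differed in sign. RARA was higher at 0.57 (adjusted p = 0.000179) and RXRB at 0.19 (adjusted p = 0.017), and RXRG was lower at -0.42 (adjusted p = 0.00183). RXRG had 49.3 ± 11 CPM in DOX and 62.9 ± 8.01 CPM in MYO (SD, n = 5 each), against 94.9 ± 17.2 CPM in Control, 120 ± 7.34 CPM in Hyper and 36.5 ± 2.57 CPM in RemoLV (SD, n = 3 each). Without the libraries labelled RemoLV it fell by 0.94 on the log2 scale (adjusted p = 9.05e-06). Of 6 other genes linked to anthracycline cardiotoxicity in patients, 4 were found and none had enough counts to be tested. Without RemoLV, 13 of the 35 related genes were called higher and 9 lower, where 50.1% of all genes were called.

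**Figure D4:**
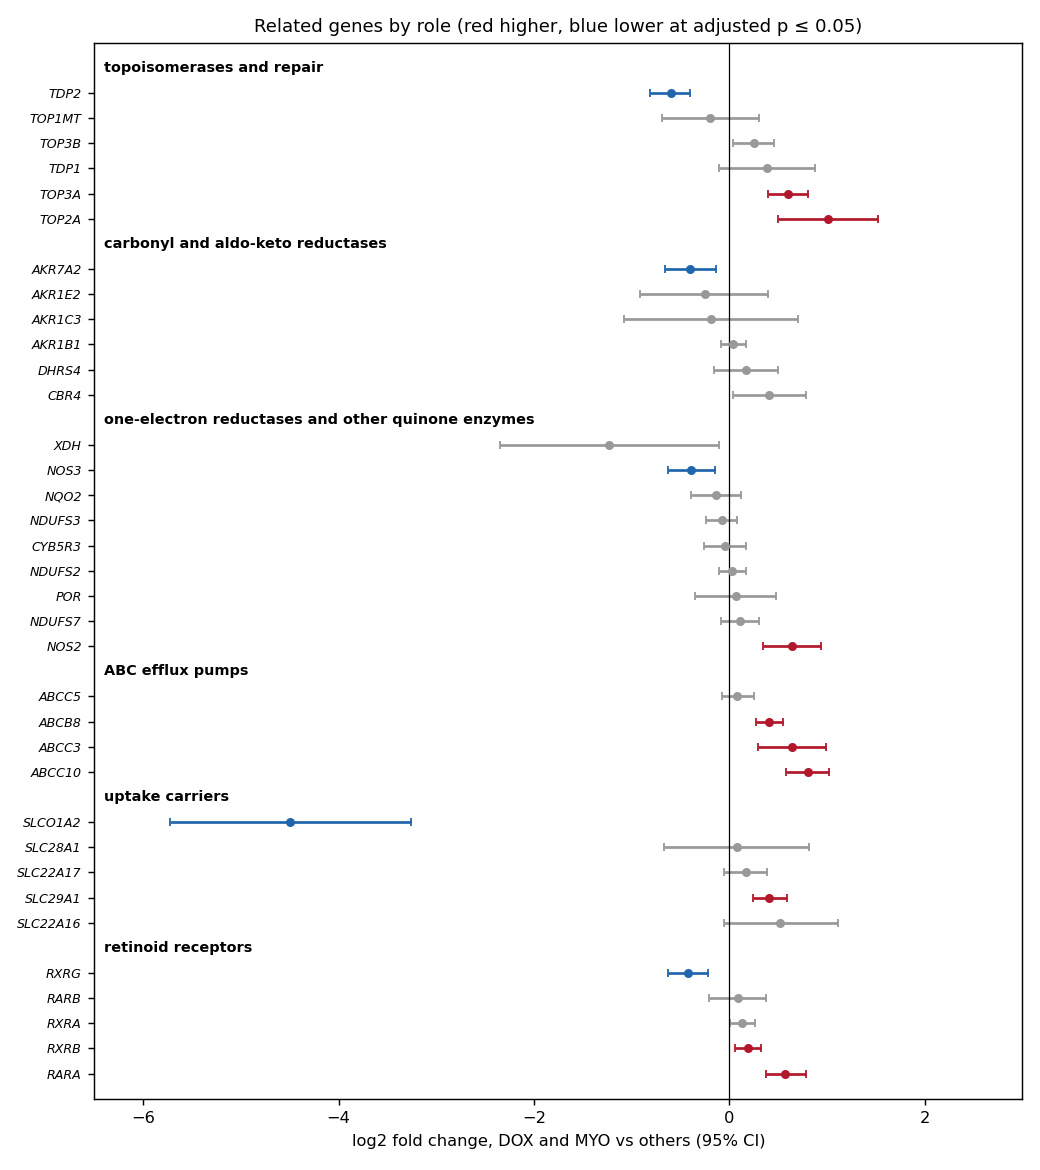
Log2 fold change in DOX and MYO vs. the 9 others (x axis) with 95% confidence interval for the 35 related genes tested, grouped by role (y axis), by count file label. Red points are called higher (9 genes) and blue points lower (5 genes) at an adjusted p of at most 0.05. The fitted value of SLCO1A2, at -4.50, rests on 0 to 4 counts per DOX and MYO library and is uncertain in size.

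The genes whose log2 CPM followed each member most closely over the 19 libraries are given as a description, since group differences and scaling are shared by all pairs. TOP1 was most like ETF1 (Pearson r = 0.968), RANBP2 (0.958) and SYNCRIP (0.951), and ABCC1 was most like UBN1 (0.943), SKI (0.938) and ZBED4 (0.933). After group means were removed, r was 0.902 for ETF1 with TOP1 and 0.825 for UBN1 with ABCC1. RARG was most like CDK9 (0.932), MXRA8 (0.931) and FES (0.926). ABCC4 was most like ALDH4A1 (0.911), RAPGEF1 and NTMT1 (0.902 each), but within groups these fell to 0.299, 0.28 and 0.256, so the likeness of this pump lay between groups. TOP2B was most like STAG1 (0.859), and within groups this r was 0.903. For AKR1A1, NQO1 and ABCB1 the closest genes were FREM2 (0.872), RIMS1 (0.871) and NOM1 (0.842).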

How the data were processed

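RNA of LV tissue from 19 pigs was sequenced as poly(A) libraries with a kit that keeps strand. STAR was used by the authors to align read pairs to Sscrofa11.1, and HTSeq 0.11.1 to count them by strand on Ensembl genes. The deposited counts are whole numbers that were not normalized. A second deposited table holds log2-scale expression, log2 fold changes and p-values of the authors' DESeq2 comparisons with Control. From it only gene symbols and the rank order of its sample columns were used, and its fold changes and p-values were left out. Gene symbols were matched to Ensembl IDs through that table (13363 IDs) and a name table (14856 IDs). A gene of the related lists is not reported here. Members and gene lists were chosen with earlier results of these data known.

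Counts were analysed in R 4.3.3 with edgeR 4.0.16 by TMM scaling, filterByExpr and the quasi-likelihood test in 1 model of the 5 groups, with Benjamini-Hochberg adjustment over 13552 genes. Genes were called at an adjusted p of 0.05 or less, and intervals are 95% intervals. The study used DESeq2, and DESeq2 1.42.0 served here as an alternative. The p-values measure the spread between pigs of a group. Library totals were 9527710 to 20370209 counts, and 3 counts was taken as the floor. Reads were not marked with molecular identifiers, so count limits cover counting error only. Alternatives were RLE size factors, library totals only, no filter, 10 counts in every library, a replicate block, only the libraries compared, table names, no RemoLV and leaving out each library. The comparison of RemoLV with Hyper and the fit without Control2 and Hyper1 were chosen after seeing the data. All members were named, and from each related list the genes called in DOX and MYO vs. the others, or at least the 2 with the lowest adjusted p. Likeness was Pearson's r of log2 CPM (prior count 2) over 19 libraries, among genes with a mean of at least 2. Sequences and coordinates are from RefSeq, Sscrofa11.1. The procedure was tested on simulated data.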

Additional observations from a re-analysis of the deposited data

Results flagged for a closer look

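ABCC1 in library MYO5 was at 67.5 CPM, whereas the other MYO libraries were between 52.7 and 55.7 CPM. Its gap to the nearest of the others was 0.793 of the range of the group, above the critical value of 0.71 for 5 samples. In all, 18 sets of values (members in groups of 5 libraries) were examined and 1 exceeded the critical value, and chance alone gives about 1 in 20. Without MYO5, ABCC1 in MYO vs. Control stayed called, and over all libraries left out singly its log2 fold change was between 0.52 and 0.85.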

How the results depend on the processing

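In DOX and MYO vs. the others, ABCC1, ABCC4 and ABCB1 kept their direction and call under every alternative run, and TOP1 under all except library totals. Over single omitted libraries their log2 fold changes were 0.69 to 0.80, 0.72 to 0.82, 0.43 to 0.57 and -0.49 to -0.35, in this order. Without RemoLV, ABCC4 fell from 0.78 to 0.34 (adjusted p = 0.0278), while ABCC1 was at 0.86, ABCB1 at 0.52 and TOP1 at -0.7. RLE size factors, DESeq2, no filter and 10 counts in every library changed 1, 2, 1 and 0 of the 64 member results. Sign changes between values that were not called were not counted as reversals. CBR1 and CBR3 had at most 2 and 25 counts per library, which limits what can be detected for them. The causes of the changes below were not tested.

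Scaling to library totals only raised the median log2 fold change of all genes to 0.214 in DOX and MYO vs. the others (81.8% of calls higher, against 52.1% with TMM), 0.285 vs. Hyper, 0.446 in DOX and 0.442 in MYO vs. Control, 0.519 in RemoLV vs. Control and 0.356 vs. Hyper. Called members under it were 0 lower and 4 higher in DOX and MYO vs. the others (TOP1 -0.19, adjusted p = 0.0968, and RARG gained at 0.47, adjusted p = 0.00761), 0 lower vs. Hyper, 0 lower and 5 higher in DOX vs. Control (AKR1A1 gained at 0.75, adjusted p = 0.00615), 5 higher in MYO vs. Control, 1 lower in RemoLV vs. Control and 3 higher in RemoLV vs. Hyper (RARG, with ABCC1 and AKR1A1 gained).

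With table names, reversed log2 fold changes vs. Control were TOP1 0.31 and RARG -0.79 in DOX, TOP1 0.11 and RARG -0.56 in MYO, TOP1 1.09, AKR1A1 -0.72, NQO1 0.77, ABCC4 0.98 and RARG -1.43 in RemoLV, and TOP1 0.74 and RARG -1.36 in Hyper. In RemoLV vs. Hyper they were TOP1 0.35 and RARG -0.06. Called members became 2 higher in DOX vs. Control, where 15.0% of all genes were higher. In Hyper vs. Control they became 3 higher and 1 lower, where 18.7% and 17.2% of genes were (4856 genes). In RemoLV vs. Hyper they became 0 higher and 0 lower (0 genes).

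Without the libraries labelled RemoLV, 2 members (TOP1 and NQO1) were lower in DOX and MYO vs. the others, where 24.7% of all genes were lower. Without Control2 and Hyper1, 1 member was higher in DOX and MYO vs. Hyper, 2 were higher in DOX vs. Control, and Hyper vs. Control had 1 lower (TOP1) and 3141 genes called. MYO vs. Control had 2 lower with RLE size factors and 2 with DESeq2, TOP2B being the second. DESeq2 called 2 genes in DOX vs. MYO and, in Hyper vs. Control, 1 member higher and 312 genes, where no filter gave 6 genes and a fit of only the libraries compared gave 1.

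Leaving out single libraries gave 1 to 3 members higher, 0 to 2 lower and 2530 to 4499 genes in DOX and MYO vs. Hyper (lowest without Hyper1), 2 to 4 higher and 3787 to 6164 genes in DOX vs. Control (fewest members without Control2, fewest genes without Control3), 1 to 2 lower in MYO vs. Control, and 1 to 2 higher in RemoLV vs. Hyper. Hyper vs. Control had 0 to 2 higher, 0 to 1 lower and 0 to 2538 genes (highest without Control2, and 773 without Hyper1). NQO1 in RemoLV vs. Control was no longer called without RemoLV1, RemoLV3 or Control2 (-0.37).

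With a replicate block, 2 of 64 member results changed: ABCB1 in DOX vs. Control was 0.41 (adjusted p = 0.0889) and AKR1A1 in MYO vs. Control 0.58 (adjusted p = 0.0254). Same-numbered libraries of different groups had correlations of deviations from -0.284 to 0.346 (32 pairs) and others from -0.311 to 0.361 (110 pairs), so they shared only a number.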
